A study of Homo sapiens with 16 samples.

Results

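10 genes of cell adhesion in the bone marrow were followed across 2 human multiple myeloma cell lines: CD44, CADM1, FN1 and the integrin chains ITGA4, ITGA6, ITGAL, ITGAM, ITGB1, ITGB2 and ITGB7. They were found by gene symbol among the 15529 genes listed in either of 2 deposited count tables, and 8 of the 10 had a row in each table. CD44 and FN1 had a row in the KMS12PE table alone, ITGAM and ITGB2 in the KMS27 table alone, and the other 6 in both. CD44, CADM1, FN1 and ITGA6 were chosen by their measured log2 fold changes of a clone against the parental cells, so their values are described and not tested. The 6 other integrin chains were chosen for their role and were tested, apart from ITGAM as explained beside it.

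RNA was sequenced from 8 cell populations with 2 libraries each, 16 in all. KMS12PE and KMS27 are established myeloma lines with t(11;14), the translocation that places cyclin D1 under an immunoglobulin enhancer. In each line the parental cells (labelled WT in KMS27) stand beside 3 clones, A, C and D in KMS12PE and B5, C1 and C5 in KMS27. Each clone was grown from 1 cell that had persisted under a high dose of venetoclax, which blocks the anti-apoptotic protein BCL2, and was kept in 100 nM venetoclax. The venetoclax dose of the parental cells is not stated, so drug, selection and single-cell origin cannot be told apart, and the 3 clones of a line are compared with the same 2 parental libraries. The replicates are numbered 1 and 3 in KMS12PE and 1 and 2 in KMS27. No label says that they came from separate cultures, so the p-values measure the spread between these libraries, which may be technical.

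Myeloma cells are malignant plasma cells that live in the bone marrow by holding on to its matrix and stroma. Integrins are receptors made of an alpha and a beta chain. ITGA4 pairs with ITGB1 or ITGB7 to bind VCAM1, fibronectin or MADCAM1, ITGAL and ITGAM pair with ITGB2 to bind ICAM1 and other ligands, and ITGA6 pairs with ITGB1 or ITGB4 to bind laminin. CD44 is the main cell-surface receptor for hyaluronan, FN1 encodes the matrix protein fibronectin, and CADM1 is an immunoglobulin-type cell adhesion molecule.

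The 250 bases before the start site are shown for CD44, FN1 and ITGB7, since these 3 genes had the lowest levels relative to the parental cells in the same clone, KMS12PE clone D, and differ in what lies before their starts. The sequences are from RefSeq on GRCh38.p14, where 7 of the 10 genes matched a promoter entry. They read 5′ to 3′ on the strand of the gene. Capitals mark the GC box, GGGCGG or on the other strand CCGCCC, with overlapping matches counted.
CD44, chr11:35138921-35139170, plus strand: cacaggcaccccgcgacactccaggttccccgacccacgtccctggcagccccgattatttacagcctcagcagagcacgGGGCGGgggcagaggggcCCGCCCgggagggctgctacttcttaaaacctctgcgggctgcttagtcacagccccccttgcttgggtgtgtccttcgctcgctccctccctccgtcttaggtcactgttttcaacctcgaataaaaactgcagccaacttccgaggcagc
FN1, chr2:215436069-215436318, minus strand: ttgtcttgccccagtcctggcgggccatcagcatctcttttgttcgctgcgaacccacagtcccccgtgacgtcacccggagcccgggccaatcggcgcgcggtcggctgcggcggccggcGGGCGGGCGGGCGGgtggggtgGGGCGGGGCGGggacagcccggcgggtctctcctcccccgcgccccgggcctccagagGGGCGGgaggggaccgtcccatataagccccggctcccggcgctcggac
ITGB7, chr12:53207252-53207501, minus strand: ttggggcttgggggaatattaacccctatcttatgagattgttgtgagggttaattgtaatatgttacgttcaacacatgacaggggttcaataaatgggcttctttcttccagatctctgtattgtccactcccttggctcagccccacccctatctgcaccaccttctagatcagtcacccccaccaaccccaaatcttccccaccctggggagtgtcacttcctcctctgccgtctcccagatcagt
The FN1 window held 6 GC boxes and 32 CpG dinucleotides, the CD44 window 2 GC boxes and 15 CpG, and the ITGB7 window 0 GC boxes and 2 CpG. Over 35114 promoter entries, 42.6% held a GC box in these 250 bases and the median was 11 CpG, with fewer CpG than FN1 in 90.5%, than CD44 in 57.1% and than ITGB7 in 14.7%. A match to these letters is a description of the window and not a binding site. In GENCODE 29 on GRCh38, CD44 spans chr11:35138870-35232402 on the plus strand, FN1 chr2:215360440-215436172 on the minus strand and ITGB7 chr12:53191318-53207307 on the minus strand, so transcripts listed there begin inside the windows shown or before them.

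The identity of the cells and the depth of the libraries were examined first. All 10 plasma cell markers looked for had a row in both tables. Of the 10 fibroblast markers 1 had a row in KMS12PE (THY1) and 2 in KMS27 (PDGFRB and ACTA2), and of the 10 myeloid markers 2 and 1 did. The T and NK cell list had 3 rows in each table, the epithelial list 2 and 1, and the endothelial list 1 and 2. The summed plasma cell markers were at 2959 to 3717 CPM over the KMS12PE libraries. In KMS27 they were at 9630 to 11378 CPM in the parental libraries, 6930 to 9073 in B5, 8046 to 9778 in C1 and 5335 to 5527 in C5, where CD38 had a mean of 2.54 CPM beside 109 in the parental cells. The epithelial markers with a row in KMS12PE, EPCAM and MUC1, summed to 103 to 107 CPM in the parental libraries, 94.2 to 95.5 in A, 101 to 111 in C and 43.4 to 55.4 in D. The part of these markers in the adhesion genes' changes in C5 and D was not tested. A KMS12PE library held 5831289 to 13674426 counts and a KMS27 library 20257318 to 52615971, so 3 counts were worth 0.212 to 0.527 CPM (counts relative to the TMM-scaled depth of the library) in KMS12PE and 0.0596 to 0.16 CPM in KMS27. The 2 libraries of clone B5 differed the most from each other, with a chi-square per degree of freedom of 54.5 against 4.95 to 21.4 in the other 7 populations. Without B5 replicate 1 the genes called in clones C1 and C5 rose from 3049 and 2772 to 5143 and 4420, and without replicate 2 to 5097 and 4379.

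**Figure D1:**
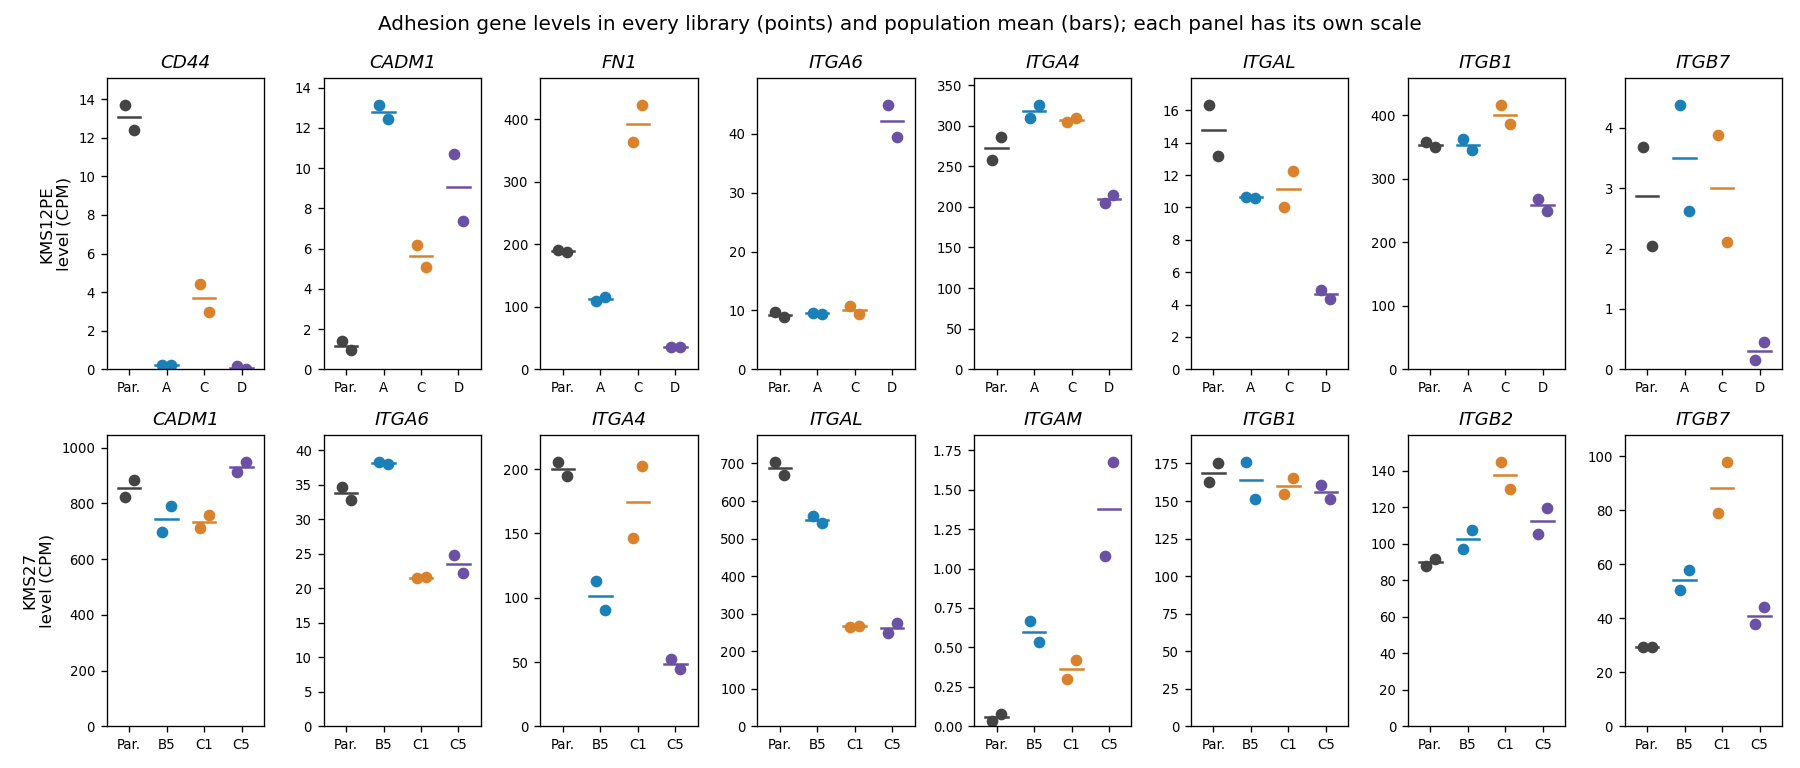
Level in CPM (vertical axis, from 0, its own scale in each panel) of the adhesion genes in each population (horizontal axis, Par. for parental), in KMS12PE (upper row) and KMS27 (lower row). Points are the 2 libraries and bars their mean. The 2 CD44 points of clone D lie at 0.158 and 0 CPM, and the 2 ITGA6 points of clone D at 44.9 and 39.4 CPM stand above all other KMS12PE libraries.

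CD44 was abundant enough to measure in parental KMS12PE cells and in clone C, and was close to absent from the libraries of clones A and D. Its levels were 13.7 and 12.4 CPM in the parental libraries, 4.41 and 2.96 CPM in clone C, 0.225 and 0.232 CPM in clone A, and 0.158 and 0 CPM in clone D. No populations overlapped, and all 6 clone libraries lay below both parental libraries. The parental libraries held 157 CD44 counts together, clone C 92, clone A 5 and clone D 1. The mean was 57.2-fold lower in clone A and 3.54-fold lower in clone C than in the parental cells. In clone D the ratio of the counts was 229-fold lower with an exact 95% interval of 40.5 to 9094, which covers counting error only. CD44 was picked on these falls, so the interval is no test of them. Only the parental and clone C libraries reached the floor of 5 counts, so the row depends on the populations where CD44 was high. The order of clones A and D rests on 5 counts against 1 and is not resolved at this depth. In RNA of whole cultures, fewer cells that express a gene and less RNA per cell cannot be told apart.

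CADM1, whose product binds other cells through its immunoglobulin domains, stood the other way. It was at 1.41 and 0.943 CPM in the parental KMS12PE libraries, at 13.1 and 12.5 CPM in clone A, at 6.17 and 5.08 CPM in clone C, and at 10.7 and 7.39 CPM in clone D. All 6 clone libraries lay above both parental libraries, which held 14 CADM1 counts together. The means were 10.9-fold, 4.79-fold and 7.71-fold higher in clones A, C and D, and the order A, D, C, parental had no overlap between neighbours. The clone furthest from the parental cells in CADM1 was clone A, while in FN1, ITGA6 and ITGB7 it was clone D.
In KMS27 CADM1 was at 822 and 885 CPM in the parental libraries, 697 and 791 CPM in B5, 710 and 759 CPM in C1, and 911 and 949 CPM in C5. B5 and C1 overlapped each other below the parental cells and C5 lay above them, with log2 fold changes (log2FC, clone minus parental) of -0.20, -0.22 and 0.12. The 2 tables were scaled separately, so the parental levels of 1.17 and 853 CPM in the 2 lines are set side by side and not tested.

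FN1, which encodes fibronectin, had a different level in each KMS12PE clone. The 2 parental libraries were at 191 and 187 CPM, clone A at 109 and 115 CPM, clone C at 363 and 423 CPM, and clone D at 35.5 and 35.7 CPM. Clone C was above the parental cells and clones A and D were below them, with no overlap between any populations. Against the parental cells A had a log2FC of -0.75, C of 1.06 and D of -2.41, and clone C was 11.0-fold above clone D. Fibronectin is also a product of stromal fibroblasts. The 1 fibroblast marker with a row, THY1, had a mean of 31.7 CPM in the parental cells, 26.7 in A, 29.7 in C and 7.46 in D. Its part in the FN1 levels was not tested.

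ITGA6, the alpha chain of laminin receptors, was high in 1 clone of KMS12PE. It was at 9.66 and 8.95 CPM in the parental libraries, 9.55 and 9.44 CPM in clone A, 10.8 and 9.46 CPM in clone C, and 44.9 and 39.4 CPM in clone D. Parental, A and C overlapped, and clone D stood 4.53-fold above the parental mean (log2FC 2.18). Of its beta partners, ITGB4 was at 0.735 CPM in the parental cells and 1.13 CPM in clone D, and did not pass the test in any clone. ITGB1, the other partner, was at 354 CPM in the parental cells and 258 CPM in clone D. Its fall there was called, but not without some single libraries, as given below. In KMS27 ITGA6 was at 34.7 and 32.8 CPM in the parental libraries, 38.3 and 38.0 CPM in B5, 21.4 and 21.6 CPM in C1, and 24.8 and 22.3 CPM in C5. C1 and C5 lay below the parental cells (log2FC -0.65 and -0.52) and B5 above them (log2FC 0.18), with no overlap between populations.

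The 4 integrin chains chosen for their role and measured in KMS12PE all fell in clone D, and none passed the test in clones A or C. The test was edgeR's quasi-likelihood test with Benjamini-Hochberg adjustment over all genes tested, and a gene was called at an adjusted p under 0.05. In clone D 4 of 4 were lower, where 3.31% of all genes were lower and 1.86% higher. In clone A 0 of 4 were called, where 0.212% of all genes were higher and 0.236% lower, and in clone C 0 of 4, where 0.904% were higher and 0.88% lower. At an unadjusted edgeR p under 0.05, 2 of the 4 passed in clone A, ITGA4 and ITGAL, where 7.26% of all genes did, and none in clone C, where 10.3% did, and DESeq2 called 0 in both. The 4 had a median log2FC of -1.07 in D, 0.11 in A and 0.12 in C, against medians of 0.01, 0.00 and 0.00 over all genes. A joint test among the 3 clones called 4 of 4, where 8.22% of all genes were called. Libraries with 1 replicate number resembled each other in this line. With that number as a block in edgeR, the 4 stayed called in D and none was called in A or C. The blocked adjusted p in D was 0.000739 for ITGA4, 5.42e-06 for ITGAL, 6.35e-05 for ITGB1 and 0.0007 for ITGB7. The block also raised the genes called in D from 634 to 2019.

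ITGAL, the alpha chain of the leukocyte integrin LFA-1, was at 16.3 and 13.2 CPM in the parental KMS12PE libraries, 10.7 and 10.6 CPM in A, 10.0 and 12.3 CPM in C, and 4.89 and 4.36 CPM in D. All 6 clone libraries lay below both parental libraries, and those of D below all others. The fall in D had a log2FC of -1.68 (SE 0.21, adjusted p = 0.00236 by edgeR), and it was called under each alternative run, with adjusted p up to 0.0262. ITGB7 was at 3.69 and 2.04 CPM in the parental libraries, 4.38 and 2.63 CPM in A, 3.88 and 2.12 CPM in C, and 0.158 and 0.445 CPM in D. Parental, A and C overlapped and D lay below them, with 6 counts in D against 34 in the parental libraries. Its log2FC in D was -3.04 (SE 0.66, adjusted p = 0.0329 by edgeR). The call was lost without either D library (adjusted p = 0.101 and 0.0844) and without either parental library (adjusted p = 0.182 and 0.0685).
ITGA4, the alpha chain of the VCAM1 receptor, was at 258 and 286 CPM in the parental libraries, 310 and 326 CPM in A, 305 and 310 CPM in C, and 205 and 214 CPM in D. Its common partner ITGB1 was at 357 and 350 CPM in the parental libraries, 362 and 345 CPM in A, 416 and 385 CPM in C, and 267 and 249 CPM in D. In both genes D was the lowest population with no overlap. The falls in D were small, with a log2FC of -0.37 for ITGA4 (SE 0.088, adjusted p = 0.0445 by edgeR) and -0.45 for ITGB1 (SE 0.088, adjusted p = 0.0194 by edgeR). The ITGA4 call was lost when any 1 of the 8 libraries was left out, with adjusted p from 0.0768 to 0.253. The ITGB1 call was lost without A replicate 3 (adjusted p = 0.0507), D replicate 3 (adjusted p = 0.107), parental replicate 1 (adjusted p = 0.101) or parental replicate 3 (adjusted p = 0.0822).

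In KMS27 the integrin chains moved in opposite directions within a clone. ITGA4 and ITGAL fell in 2 of the 3 clones each, ITGB7 rose in all 3, ITGB2 rose in C1, and ITGB1 did not pass the test in any. ITGAM is left out of the counts here, since its row in the table depends on the clones. In B5 1 of the 5 other chains was higher and 1 lower, where 10.8% of all genes were higher and 10.2% lower. In C1 2 of 5 were higher and 1 lower, where 11.5% and 10.1% of all genes were, and in C5 1 of 5 was higher and 2 lower, where 10.4% and 9.28% were. The 5 had a median log2FC of -0.04 (B5), -0.08 (C1) and -0.11 (C5). The joint edgeR test among the clones called 3 of 5, where 13.7% of all genes were called. ITGB1 was not called (adjusted p = 0.888). ITGB2 was not called by edgeR (adjusted p = 0.0731) but was by DESeq2 (adjusted p = 0.0292), and by edgeR without B5 replicate 1 or 2 (adjusted p = 0.0493 or 0.0188).

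ITGA4 was at 206 and 195 CPM in the parental KMS27 libraries, 113 and 90.3 CPM in B5, 146 and 202 CPM in C1, and 52.6 and 44.5 CPM in C5. C1 overlapped the parental cells, and its 2 libraries were further apart than those of any other population. The log2FC was -2.04 in C5 (SE 0.18, adjusted p = 0.000135 by edgeR) and -0.98 in B5 (SE 0.18, adjusted p = 0.00519), and in C1 it was -0.20 (adjusted p = 0.434). ITGAL was at 704 and 670 CPM in the parental libraries, 560 and 541 CPM in B5, 266 and 267 CPM in C1, and 248 and 275 CPM in C5. C1 and C5 overlapped each other far below the parental cells, at log2FC -1.37 (SE 0.12, adjusted p = 0.000177 by edgeR) and -1.39 (SE 0.12, adjusted p = 0.000124). B5 lay between, at log2FC -0.32 (adjusted p = 0.0915 by edgeR, and 0.0243 by DESeq2).
ITGB7, which with ITGA4 forms a receptor for the gut addressin MADCAM1, rose in each KMS27 clone. It was at 29.4 CPM in both parental libraries, 50.5 and 57.7 CPM in B5, 78.9 and 97.9 CPM in C1, and 37.9 and 44.1 CPM in C5. No populations overlapped, in the order C1, B5, C5, parental. The log2FC was 1.59 in C1 (SE 0.14, adjusted p = 0.000175 by edgeR), 0.88 in B5 (SE 0.14, adjusted p = 0.00291) and 0.48 in C5 (SE 0.14, adjusted p = 0.0409). The C5 call was lost without either parental library (adjusted p = 0.176 and 0.166) or either C5 library (adjusted p = 0.0871 and 0.275).

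ITGB2, the beta chain shared by ITGAL and ITGAM, was at 87.8 and 91.7 CPM in the parental KMS27 libraries, 97.3 and 108 CPM in B5, 145 and 130 CPM in C1, and 105 and 119 CPM in C5. All 6 clone libraries lay above both parental libraries, while for its partner ITGAL all 6 lay below. ITGB2 was called in C1 (log2FC 0.62, SE 0.12, adjusted p = 0.00668 by edgeR), but not without parental replicate 1 (adjusted p = 0.0661) or C1 replicate 1 (adjusted p = 0.0753). In C5 it had a log2FC of 0.32 (adjusted p = 0.0829 by edgeR), with adjusted p = 0.0303 and 0.0283 without B5 replicate 1 or 2. In B5 it had a log2FC of 0.19 (adjusted p = 0.282).
ITGAM, the alpha chain of the myeloid integrin Mac-1, was scarce in every library. It had 1 and 2 counts in the parental libraries, 16 and 10 in B5, 15 and 11 in C1, and 32 and 42 in C5, or at most 1.68 CPM. It has a row in the table because of the clones, since the parental libraries are under the floor of 5 counts seen there. The ratios of the counts to the parental libraries were 10.8 in B5 (exact 95% interval 3.30 to 55.6), 6.04 in C1 (1.85 to 31.2) and 24.0 in C5 (7.89 to 119). These intervals too cover counting error only, and the libraries differed by more than that. Since the row depends on the clones, no test of the rise is given, and the intervals are not one. Of 10 myeloid markers CD68 alone had a row in KMS27, with means of 0.27 CPM in the parental cells, 0.429 in B5, 0.45 in C1 and 0.517 in C5, and its part in the ITGAM counts was not tested.
ITGB1, the most shared beta chain, was at 163 and 175 CPM in the parental KMS27 libraries, 176 and 152 CPM in B5, 155 and 165 CPM in C1, and 161 and 151 CPM in C5. Its log2FC ran from -0.11 to -0.04 with an SE of 0.12 in each clone, so neighbouring populations did not differ beyond their spread.

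**Figure D2:**
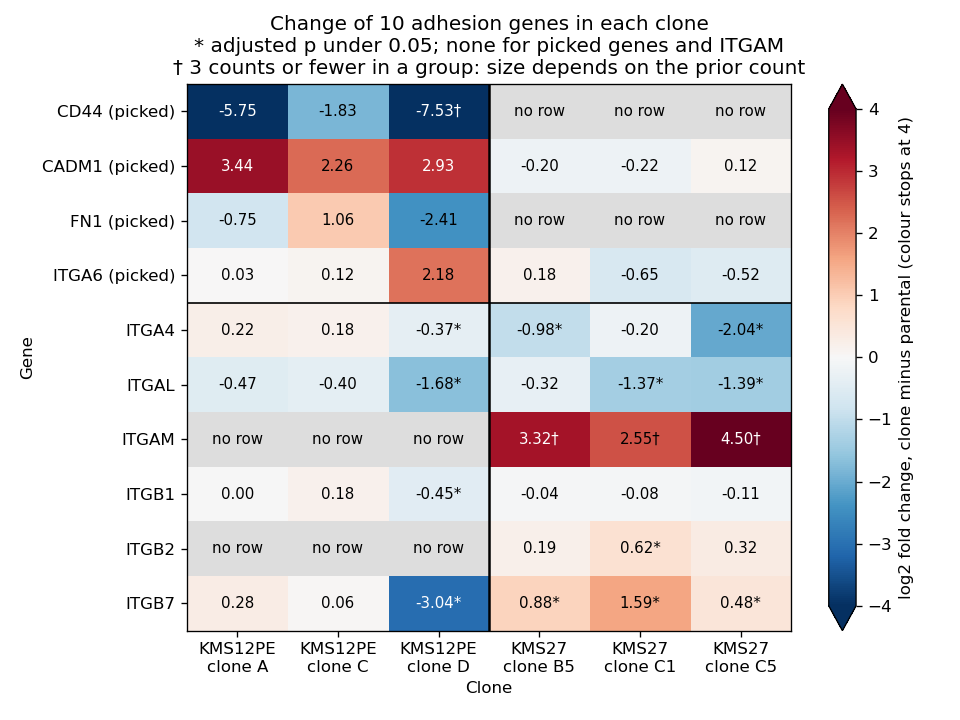
Log2 fold change of each of the 10 genes (rows) in each clone (columns) against its parental cells, in colour that stops at 4 and as numbers, with a star for adjusted p under 0.05 (none is given for the picked genes and ITGAM) and a dagger where a population had 3 counts or fewer. Clone D of KMS12PE has 4 starred integrin values, all negative, while ITGB7 is starred and positive in all 3 KMS27 clones and ITGAL is negative in every clone of both lines.

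The response of the 2 lines was compared directly for the 4 role-chosen chains with a row in both tables, as the mean log2FC of the 3 clones in KMS12PE minus that in KMS27. The difference was called for 2 of 4, where 14.2% of all genes were called. The test takes the spread between libraries, not that between the clones of a line. Its p-values thus do not say whether other clones of the 2 lines would differ. The line and whatever else differs between the tables cannot be told apart. Over single clones ITGA4 had log2FC 0.22, 0.18 and -0.37 (A, C, D) and -0.98, -0.20 and -2.04 (B5, C1, C5). ITGB7 had 0.28, 0.06 and -3.04, and 0.88, 1.59 and 0.48. For ITGA4 the responses were 0.01 in KMS12PE and -1.08 in KMS27, a difference of 1.09 (SE 0.18, adjusted p = 0.00108 by edgeR). For ITGB7 they were -0.91 and 0.97, a difference of -1.88 (SE 0.45, adjusted p = 0.0129 by edgeR), with adjusted p = 0.198 without KMS12PE parental replicate 1. The difference was 0.18 for ITGAL (SE 0.15, adjusted p = 0.477) and -0.0049 for ITGB1 (SE 0.13, adjusted p = 0.986). For the picked genes the responses were 2.87 and -0.11 for CADM1 and 0.78 and -0.34 for ITGA6, given without a test.

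The other genes of adhesion were taken as 7 lists of 182 genes, none of them among the 10. In KMS12PE 79 were tested. In clone A 1 was higher and 1 lower (1.27% each, beside 0.212% and 0.236% of all genes). In clone C 3 were higher and 1 lower (3.8% and 1.27%, beside 0.904% and 0.88%). In clone D 6 were higher and 3 lower (7.59% and 3.8%, beside 1.86% and 3.31%), so the share lower in D was near that of all genes. With replicate number as a block, which in this line marks libraries that resemble each other, the 15 calls over the 3 clones became 45. The 79 genes had a median log2FC of -0.01 (A), 0.01 (C) and 0.00 (D).
Clone D held most of the called genes. PODXL, a sialomucin that can carry selectin ligands, rose from 6.54 ± 0.31 to 63.1 ± 3.7 CPM (SD, n = 2, log2FC 3.27, adjusted p = 4.11e-06 by edgeR). ST3GAL4, a sialyltransferase of selectin ligands, rose by log2FC 1.17 and B4GALT1, a galactosyltransferase, fell by 0.72. In the matrix list of 8 tested genes 3 rose: SPP1, which encodes the matrix ligand osteopontin (log2FC 2.28, adjusted p = 0.0288 by edgeR), the proteoglycan AGRN (log2FC 1.01) and the microfibril gene FBN1 (log2FC 0.62). FERMT3, the kindlin that activates integrins in blood cells, fell from 157 ± 0.5 to 71.5 ± 5.5 CPM (SD, n = 2, log2FC -1.13, adjusted p = 0.000172 by edgeR). HAS3, a hyaluronan synthase, fell from 2.26 ± 0.53 to 0.493 ± 0.19 CPM (SD, n = 2, adjusted p = 0.0443 by edgeR).
ADAM17, a sheddase with CD44 among its substrates, was the 1 list gene called in all 3 clones (1.27%, beside 0.0244% of all genes higher in all 3). It was at log2FC 0.61 in A, 0.85 in C and 0.38 in D (adjusted p = 0.0278, 0.00229 and 0.0491 by edgeR). MCAM, an immunoglobulin-type adhesion molecule, fell in clone A alone among the calls, from 10.8 ± 0.15 to 1.74 ± 0.39 CPM (SD, n = 2, log2FC -2.60, adjusted p = 0.0069 by edgeR), and was at 15.3 CPM in C and 15.8 CPM in D. In clone C the actin linkers FLNA and ZYX rose (log2FC 0.68 and 0.92) and CD48 fell (log2FC -0.75). The 6 other integrin chains tested had a lowest adjusted p of 0.092 over the 3 clones and the 6 cadherin and catenin genes of 0.0878, both by edgeR.

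In KMS27 96 genes of the lists were tested, with 31.2% higher and 15.6% lower in B5 (10.8% and 10.2% of all genes), 25% and 14.6% in C1 (11.5% and 10.1%), and 30.2% and 12.5% in C5 (10.4% and 9.28%). Their median log2FC was 0.12, 0.19 and 0.18, against 0.00, -0.01 and -0.01 over all genes. In all 3 clones 13 genes were higher (13.5%, beside 4.5% of all genes) and 7 lower (7.29%, beside 3.73%). The 13 include SPARC, which had under 5 counts in both parental libraries, and without it 12 were higher. Its row depends on the clones, and the shares higher in B5, C1 and C5 hold it too. Of the 7 other integrin chains tested 1 was lower in B5 (14.3%, beside 10.2% of all genes), 2 in C1 (28.6%, beside 10.1%) and 2 in C5 (28.6%, beside 9.28%). ITGA8, an alpha chain that pairs with ITGB1, fell from 87.2 ± 1.4 CPM to 23.1 ± 5.1 in B5, 25.9 ± 9.2 in C1 and 15.1 ± 3.4 in C5 (SD, n = 2, adjusted p = 0.00119, 0.00194 and 0.000306 by edgeR).
Among the genes that activate integrins or tie them to actin, FLNA, which crosslinks actin, rose by log2FC 1.11, 1.36 and 1.69 in B5, C1 and C5. FERMT3 fell by 0.95, 0.50 and 0.65 on the log2 scale, and ILK, the integrin-linked kinase, fell by 0.85, 0.52 and 0.57. FERMT3 was thus called lower in all 3 KMS27 clones and in clone D of KMS12PE.
Among counter-receptors and surface adhesion genes, ICAM1, the ligand of the ITGAL receptor, rose by log2FC 0.80, 0.86 and 0.82 in B5, C1 and C5, while ITGAL itself was lower as given above. NEO1, a netrin receptor of the immunoglobulin type, rose by 0.59, 0.42 and 0.92. CD99, which serves in the passage of leukocytes through endothelium, rose from 13.7 ± 1.2 CPM to 50.3 ± 10, 59.3 ± 5.2 and 64.1 ± 4.5 CPM (SD, n = 2), and its relative CD99L2 rose by log2FC 0.73, 0.87 and 0.64. ST3GAL6, a sialyltransferase of selectin ligands, fell by 0.68, 0.81 and 1.41 on the log2 scale.
Of 19 genes of hyaluronan and CD44 partners, 4 rose in all 3 clones, where 4.5% of all genes did. CD74 rose the most of these, by log2FC 1.44, 1.72 and 2.07 in B5, C1 and C5. MSN, which links CD44 to actin, rose by log2FC 0.76, 0.94 and 0.81, and the heparan sulfate proteoglycan SDC4 by 1.39, 1.14 and 1.79. HAS2, a hyaluronan synthase, was called higher in B5 (9.37 CPM in the parental cells and 169 CPM in B5, log2FC 4.17) and lower in C1 (log2FC -0.85). Among cadherins and catenins, PCDH9 fell by 0.85, 1.13 and 1.16 and CTNND1, the p120 catenin, by 1.12, 0.97 and 1.02, while CTNNA1, the actin-binding alpha catenin, rose by 0.82, 0.81 and 0.80. SPARC, a matrix glycoprotein, was at 0.0376 CPM in the parental cells and at 1.93, 5.04 and 6.15 CPM in B5, C1 and C5. Its parental libraries were under 5 counts, so its row depends on the clones and no fold change is given. The counts and shares of matrix genes that follow hold its call in each clone. Of the 8 matrix genes tested 4 were higher and 2 lower in B5, 3 and 2 in C1, and 2 and 3 in C5. These are 25% to 50%, where 9.28% to 11.5% of all genes were called in a direction. FBN1 and AGRN, higher in KMS12PE clone D, went the other way. FBN1 was lower in B5, C1 and C5 (log2FC -2.05, -2.66 and -2.28, from 4.5 CPM) and AGRN in B5 (log2FC -1.48, from 1.9 CPM).

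**Figure D3:**
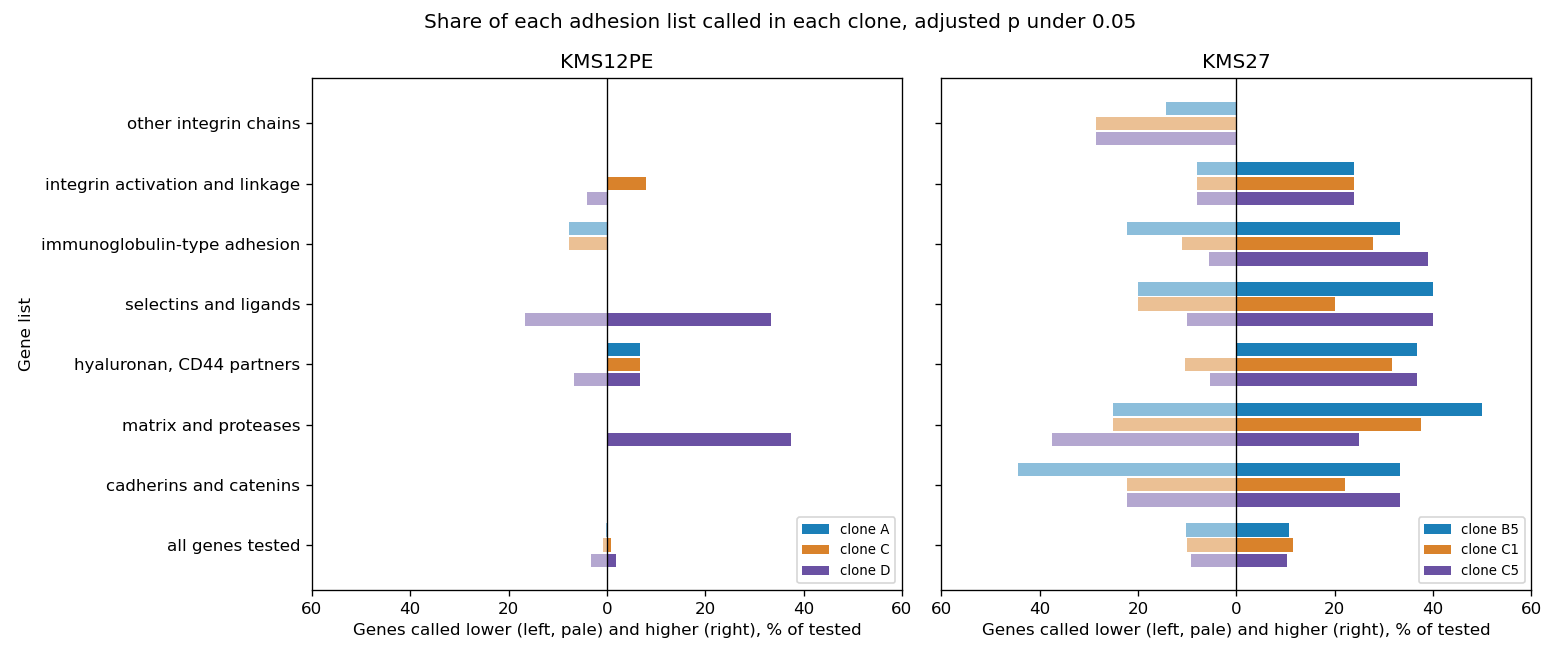
Share of the tested genes of each adhesion list (vertical axis) called higher (right, full colour) or lower (left, pale) in each clone, in percent (horizontal axis), for KMS12PE (left panel) and KMS27 (right panel), with all genes tested at the bottom. In KMS12PE the calls lie mostly in clone D, while in KMS27 each list has calls in each clone and the other integrin chains have calls to the left alone. The KMS27 matrix list holds SPARC, whose row depends on the clones.

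The genes whose log2 CPM followed the picked genes most closely over the 8 KMS12PE libraries were looked up among about 9063 genes with a mean of at least 3 log2 CPM. These are the highest correlations of a search, and libraries of 1 population are not independent. For CD44 they were PMAIP1, which encodes the BCL2 family member NOXA (Pearson r = 0.978), LCORL (0.975) and the lysosomal peptidase TPP1 (0.972). PMAIP1 had a log2FC of -1.07 in A, -0.51 in C and -1.06 in D, against CD44 at -5.75, -1.83 and a single count in D. For CADM1 they were TSR3 (0.969), the histone deacetylase HDAC3 (0.959) and the calpain inhibitor CAST (0.945), whose log2FC stayed between 0.24 and 0.48. For FN1 they were SULT1A4 (0.980), OAT (0.977) and the kinase PIM1 (0.976). SULT1A4 has a near-identical copy, so its counts are uncertain. For ITGA6 they were PODXL (0.995), TNFRSF17, which encodes the plasma cell receptor BCMA (0.991), and the epithelial transcription factor EHF (0.989), each highest in clone D at log2FC 3.27, 1.31 and 1.34.

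The 3 nearest tested genes on either side of each picked gene were examined to see whether its neighbourhood moved as well. Around CD44 the 6 neighbours had a median log2FC of -0.08 in A and 0.18 in D. None was lower than -0.72 in A or -0.19 in D, while CD44 was at -5.75 in A. In D 2 of the 6 neighbours were called and both were higher, where 1.86% of all genes were higher. They were EHF, 518 kb before the CD44 start (log2FC 1.34, adjusted p = 0.0015 by edgeR), and TRIM44 (log2FC 0.48, adjusted p = 0.0119). EHF was thus higher in the clone with a single CD44 count. It is also among the 3 genes most correlated with ITGA6 in log2 CPM, though not near it on a chromosome.
The 6 neighbours of CADM1 in KMS12PE ran from -0.24 to 0.67 over the 3 clones, and those of FN1 from -0.65 to 0.46, with a lowest adjusted p of 0.228 and 0.332 by edgeR. Around ITGA6 in clone D PDK1, 128 kb after the ITGA6 start, was higher (log2FC 0.52, adjusted p = 0.0296 by edgeR), and the other 5 ran from -0.08 to 0.33. Of all genes 1.86% were higher in D. In KMS27 PDK1 had the opposite sign and was lower in B5 and C5 (log2FC -0.44 and -1.04, adjusted p = 0.0261 and 0.000466 by edgeR). METAP1D and DLX1 were called lower in C1 (log2FC -0.81 and -3.155, adjusted p = 0.0131 and 0.0398 by edgeR). AC078883.3 was called lower in C5 (log2FC -1.158, adjusted p = 0.039 by edgeR). Of all genes 10.2% were lower in B5, 10.1% in C1 and 9.28% in C5. The 6 neighbours of ITGA6 there had medians of -0.39, -0.66 and -0.74 in B5, C1 and C5, with ITGA6 at 0.18, -0.65 and -0.52. Those of CADM1 in KMS27 had medians of -0.22, -0.32 and -0.35, with CADM1 at -0.20, -0.22 and 0.12. Of these 6, LINC00900 and BUD13 were called lower in C1 (log2FC -0.55 and -0.40), where 10.1% of all genes were. C11orf71 and LINC00900 were called lower in C5 (log2FC -0.77 and -0.63), where 9.28% were.

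**Figure D4:**
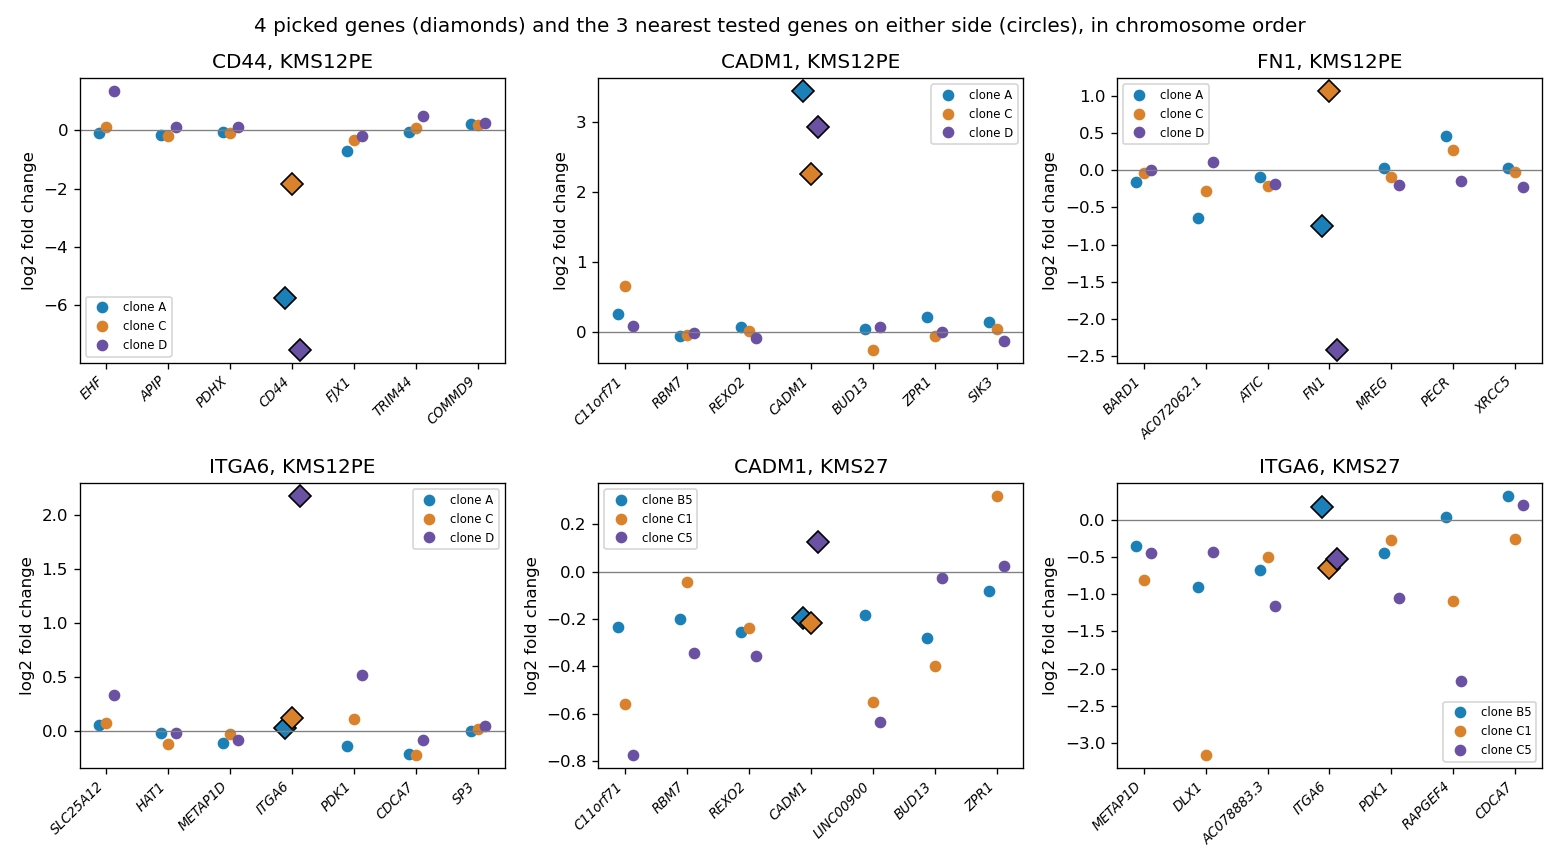
Log2 fold change (vertical axis) of the picked genes (diamonds) and of the 3 nearest tested genes on either side (circles, in chromosome order along the horizontal axis) in each clone, coloured by clone. In KMS12PE the CD44 and CADM1 diamonds lie far from their neighbours, as do the FN1 and ITGA6 diamonds of clone D. In KMS27 the ITGA6 diamonds lie within the range of their neighbours, and the CADM1 diamond of C5 lies above the range of its own.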

How the data were processed

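The authors deposited 1 table of whole-number counts per gene symbol for each line. The submitters' processing notes name hg38 as the build. Aligner, counter, annotation and use of strand are not given in the sources here, so reads of overlapping antisense genes cannot be told apart. Libraries were poly-A, made with the Roche Kapa mRNA HyperPrep kit per the labels' protocols. Every listed gene reached 5 counts in 4 or more of its 8 libraries, a floor seen in the values, so a gene without a row was not analysed here.

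The 2 lines were fitted separately (edgeR 4.0.16, R 4.3.3): filterByExpr (12279 of 12592 genes kept in KMS12PE, 14088 of 14560 in KMS27), TMM scaling, estimateDisp, glmQLFit with 1 mean per population, and 2-sided glmQLFTest with Benjamini-Hochberg adjustment over all genes tested. All 8 members listed in each line passed the filter. The biological coefficient of variation was 11.9% and 14.3%. A joint fit of the 11623 genes in both tables compared the lines. Correlations used log2 CPM with a prior count of 2, computed here. The code was tested on simulated data. DESeq2 1.42.0, other scaling, other filters, a replicate block, leaving out each library, and fits of 1 clone with the parental cells were the alternatives.

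In KMS12PE, deviations of libraries with 1 replicate number correlated across populations (0.254 to 0.537), which meets the rule for paired libraries. The p-values given are still from the planned fit without a block, unless a block is named. The blocked value stands beside a result where it moved a count by over 1.5 times, and beside the integrin calls in clone D. The members and lists were chosen with earlier results of these data known. Beside the 10 members, the rule names up to 3 genes per list and line called in all 3 clones with 1 sign and a mean log2 CPM of 3 or more, or else the called gene with the largest change, the 3 genes most correlated with each picked gene, and the 3 nearest tested genes on either side. ITGB4, ST3GAL4, B4GALT1, AGRN, FBN1, HAS3, FLNA and ZYX in KMS12PE, CD48, and HAS2, AGRN and FBN1 in KMS27 were named after their values were seen. Symbols were matched to GENCODE 29 for 11207 and 12205 of the tested genes to find neighbours. Where a population had 1 to 3 counts of one of the 10 members, the ratio of counts is given with an exact 95% interval.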

Additional observations from a re-analysis of the deposited data

Results flagged for a closer look

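In 2 of the 4 integrin chains tested in both lines, the mean response of the 3 clones differed between KMS12PE and KMS27 by a direct test in the joint edgeR fit. The test uses the spread between libraries and not that between clones, and within each line the clones differed from each other in both genes. The line and whatever else differs between the tables cannot be told apart. ITGA4 differed by 1.09 on the log2 scale, with adjusted p from 8.23e-08 to 0.0133 over 21 alternatives. ITGB7 differed by -1.88, with adjusted p from 9.01e-05 to 0.198. The KMS12PE response of ITGB7 came from clone D, at 6 counts, while A and C overlapped the parental cells.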

How the results depend on the processing

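For the 34 tested results on single integrin chains, 466 of 503 alternatives kept the direction and the side of the threshold, 33 lost the call, 4 gained it and 0 reversed it, with 18 sign changes among values not called. Leaving out each library in turn gave 1 to 3 integrin calls over the KMS12PE clones (4 with all libraries) and 7 to 12 over the KMS27 clones (11), 2 to 4 among the KMS12PE clones (4) and 3 to 5 among the KMS27 clones (4), and 1 to 2 between lines (2). The KMS27 counts hold the calls of ITGAM, whose row depends on the clones, and the 34 results and their alternatives hold its values too. None of these is a test of its rise. Without ITGAM 8 of the 11 and 3 of the 4 are left. The ITGAM call among the clones was also lost with DESeq2 and without either library of the parental cells, C1 or C5. The adhesion lists gave 5 to 14 calls in KMS12PE (15) and 65 to 146 in KMS27 (124). The 124 hold the calls of SPARC, whose row depends on the clones too. Fits of 1 clone with the parental libraries left 1 of the 4 integrin calls in KMS12PE, ITGAL in clone D, with fewer libraries to estimate the spread. Where a population is left with 1 library, that library is assumed to vary like the others.

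With the replicate block the KMS12PE integrin calls stayed at 4, as did those among the clones, and the adhesion list calls went from 15 to 45. The genes called went from 55 to 448 in clone A, 219 to 869 in C, 634 to 2019 in D and 1009 to 3208 among the clones. In KMS27 the replicate numbers correlated less (0.0597 to 0.444) and were not taken as pairing. The block there left 11 integrin calls, gave 131 list calls, added ITGB2 among the clones (adjusted p = 0.0477) and raised the genes called among them from 1933 to 2965. Between lines it left 2 integrin calls and raised the genes called from 1645 to 2535. DESeq2 called 97 genes in clone A. Fits of 1 clone with its parental libraries called 334 genes in D, 1153 in B5, 4716 in C1 and 4315 in C5. Leaving out 1 library gave 22 to 71 genes in A, 60 to 276 in C, 298 to 510 in D, 1224 to 5032 in B5, 856 to 5143 in C1 and 982 to 4420 in C5, 657 to 898 and 602 to 4587 among the clones of KMS12PE and KMS27, and 978 to 2283 between lines. The cause was not tested. Among the KMS12PE clones ITGAL was lost without D replicate 3 (adjusted p = 0.0837), and ITGB7 without A replicate 1, D replicate 1 or D replicate 3 (adjusted p = 0.0581, 0.0945 and 0.0843). Of 252 alternatives for the picked genes 3 moved beyond the spread, of which 2 are CD44 in clone D, whose fitted value rests on 1 count, and 1 changed sign. Depth limits CD44 in clones A and D, ITGB7 in clone D and ITGAM in KMS27, each at 6 counts or fewer in a population.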
